A study of Mus musculus with 4 samples.

Results

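The genes described here are 34 cell cycle and DNA replication genes, measured in whole mouse embryos that lacked the orphan nuclear receptor Nr6a1 (formerly Gcnf) and in wildtype embryos. They were chosen by function, as a fixed list of symbols, and a probe set was used only where the platform annotation gave it to one listed symbol alone. On this rule 33 of the 34 genes were measured, through 83 probe sets, out of 18193 genes and 45037 probe sets in the whole table. Ccnb1, which encodes cyclin B1, had 0 such probe sets and is not analysed here. The list holds 16 genes that act at the start of or during S phase, 14 that act in G2 and mitosis, and 4 regulators of G1. The question was whether these genes differed between the genotypes, and whether the S phase genes differed from the mitosis genes.

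RNA was taken from 2 embryos homozygous for the mutation (labelled Gcnf-/-) and from 2 wildtype embryos (labelled wt), all labelled as embryonic day 9.0, and each was hybridised to its own Affymetrix mouse genome array. The methods give a collection window that runs past that stage. The labels name no treatment. Somite number and litter were not used here. The mutation is carried in the germline and so by every cell of the embryo, the RNA is that of the whole embryo, and a lower signal can mean fewer cells of a type or less RNA per cell, which cannot be told apart here. Signals are log2 values, so that a difference of 1 is a 2-fold change.

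The cell cycle runs through G1, S phase, G2 and mitosis. In G1, D-type cyclins with Cdk4 or Cdk6 phosphorylate the retinoblastoma protein, which frees E2F factors to switch on cyclin E and the genes for DNA replication, while inhibitors such as p21, p27 and p57 hold the cyclin-dependent kinases back. Later, cyclin B with Cdk1 drives entry into mitosis, and degradation of the cyclins through Cdc20 ends it. Early embryos divide fast, so these transcripts are abundant in most of their tissues.

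Sequences around the transcription starts of these genes are shown because S phase and mitosis members differ in them, whatever their signals. Promoters of 26 of the 34 members were found in the RefSeq table of build GRCm38.p6 (300 bases each, from 250 before to 50 after the start). Both strands were searched for the E2F letters TTTGGCGC, TTTCCCGC, TTTGGCGG or TTTCGCGC. They stood in 6 of 13 S phase promoters (46.2%), namely those of Cdc6, Cdt1, Mcm3, Mcm5, Mcm6 and Mcm7, in 1 of 11 mitosis promoters (9.09%), that of Cdk1, and in 2.7% of the 27025 genes with a promoter. TTTGAA, the letters of the CHR (cell cycle genes homology region), stood in 8 of 11 mitosis promoters (72.7%), in 1 of 13 S phase promoters (7.69%), that of Mcm2, and in 20.2% of all genes. The related letters TTTAAA stood in 4 of 11 mitosis promoters (36.4%), 3 of 13 S phase promoters (23.1%) and 14.9% of all genes. The letters CCAAT stood in 10 of 11 mitosis promoters (90.9%), 8 of 13 S phase promoters (61.5%) and 41.1% of all genes. These are matches of letters, not sites shown to be bound. Some matches of the E2F letters overlap each other. Some matches lie after the start, among them all E2F matches of Cdt1 and Mcm3 and all TTTGAA matches of Aurka, Bub1b and Plk1. TCAAGGTCA, the extended response element that Nr6a1 is known to bind, stood in 0 of the 26 member promoters and in 0.466% of all genes, which says only that these letters are not in these windows.

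The first 3 of the following windows are from S phase members and the other 4 from mitosis members, each 5′ to 3′ on the gene's strand, with the E2F letters or the TTTGAA letters (TTCAAA on the other strand) in capitals. Windows end at the transcription start where they would cross it.
Cdc6, chr11:98907989-98908044, plus strand: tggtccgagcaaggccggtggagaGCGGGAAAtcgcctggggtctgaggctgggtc
Mcm5, chr8:75109332-75109387, plus strand: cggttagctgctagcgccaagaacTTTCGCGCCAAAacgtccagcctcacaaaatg
Mcm6, chr1:128359784-128359839, minus strand: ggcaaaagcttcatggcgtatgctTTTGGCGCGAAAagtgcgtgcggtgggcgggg
Cdc20, chr4:118437344-118437385, minus strand: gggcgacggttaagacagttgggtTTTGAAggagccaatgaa
Cdk1, chr10:69352954-69353007, minus strand: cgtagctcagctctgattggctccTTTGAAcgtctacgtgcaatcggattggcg
Mki67, chr7:135716448-135716501, minus strand: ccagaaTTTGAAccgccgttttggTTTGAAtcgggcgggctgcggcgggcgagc
Top2a, chr11:99024190-99024236, minus strand: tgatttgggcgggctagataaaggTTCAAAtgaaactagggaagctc
In Mcm5 and Mcm6 a pair of E2F matches overlap head to head, and in Mki67 the window holds 2 TTTGAA matches.

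Nr6a1, the mutated gene, read 11.87 and 12.14 in Gcnf-/- embryos, against 11.53 and 11.80 in wt embryos, on its brightest probe set. All 5 of its probe sets lay 0.05 to 0.56 above wt and none passed. Their place relative to the deleted part is not known here, so they check no label. The arrays correlated at r = 0.9975 between the Gcnf-/- embryos, 0.9973 between the wt embryos and 0.9931 to 0.9952 across genotypes. Wt replicate 1 was the one female by Xist (13.11, against 6.44 to 6.68 in the other arrays). Markers of the embryo's tissues were present, with Sox2 at 11.18 or above in each array, and 4 of 8 lay above and 4 below 0. Primitive red cell markers lay above wt in 7 of 7 (median 0.57, summed linear signal 100545 to 105468 in Gcnf-/- and 92369 to 95607 in wt embryos). Yolk sac endoderm markers lay below in 6 of 7 (median -0.16, sum 80219 to 92734 in Gcnf-/- and 91882 to 100337 in wt embryos). Of 5 trophoblast and decidua markers 3 lay above (median 0.07, sum 2909 to 2990 in Gcnf-/- and 1450 to 1675 in wt embryos). Plac1 was higher by 0.96 (adjusted p = 0.0378), and the trophoblast marker Tpbpa was at 4.32 or below in each array. The part of these tissues, of sex and of stage in the cell cycle values was not tested.

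None of the 33 measured cell cycle genes passed the test between genotypes. At the study's thresholds (limma, adjusted p up to 0.05, 2-fold or more), 0 members were called higher and 0 lower, where 0.544% of all genes and 0.382% of all probe sets were called. Without the fold threshold the count was still 0, against 1.4% of all genes. By limma, 7 members (21.2%) had an unadjusted p under 0.05, 3 of them higher and 4 lower in Gcnf-/- embryos, against 23.8% of all genes. The members' share was therefore near that of all genes. It was below the 30% found among the 11638 genes brighter than the median probe set.

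The differences were small and bounded. The median log2 fold change of the members (Gcnf-/- minus wt) was -0.03, beside -0.01 for all genes, and the members ran from -0.50 for Ccnd1 to 0.55 for Cdkn1b. For 16 members the difference was under 0.1 in size, and for 6 it was 0.2 or more. The 95% interval lay between -1 and 1 for 33 of 33 members, and between -0.5 and 0.5 for 30. Replicate embryos lay close together. The median SD of the members was 0.039 in Gcnf-/- and 0.0232 in wt embryos, beside 0.0603 and 0.059 for all genes in Gcnf-/- and wt embryos. For the brighter genes it was 0.0492 in Gcnf-/- and 0.0508 in wt embryos. The 2 genotypes did not overlap for 24 of 33 members (72.7%), 9 higher and 15 lower in Gcnf-/- embryos. Among all genes 56.6% did not overlap, 26.2% higher and 30.4% lower. Among the 11638 genes brighter than the median probe set, to which each of the 33 belongs, 67% did not overlap.

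**Figure D1:**
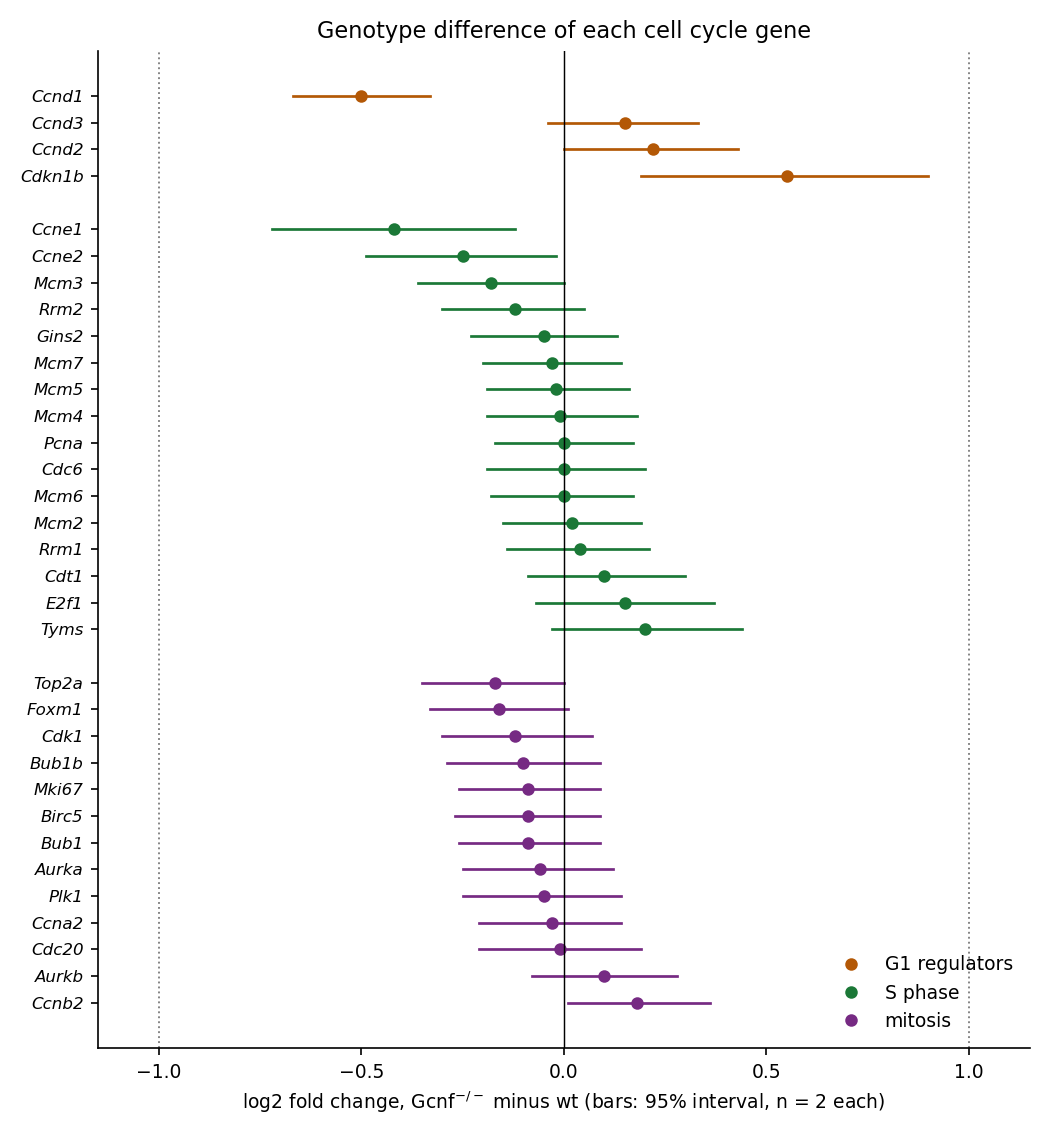
Log2 fold change (horizontal axis, Gcnf-/- minus wt) of each of the 33 measured cell cycle genes (rows), with bars for the 95% interval of limma's moderated fit, n = 2 embryos per genotype. Colours mark G1 regulators, S phase and mitosis genes, and dotted lines mark a 2-fold change. Every interval lies inside the dotted lines, and Ccnd1, Ccne1 and Cdkn1b lie farthest from 0.

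The G1 regulators held the members that lay farthest from 0. Ccnd1, which encodes cyclin D1, the D-type cyclin that many growth factor pathways induce, read 11.25 and 11.27 in Gcnf-/- embryos, against 11.75 and 11.76 in wt embryos. The genotypes did not overlap, and each pair of replicates was nearly identical. The log2 fold change was -0.50 ± 0.07 (moderated SE, n = 2 each, 95% interval -0.67 to -0.33), or 1.41-fold lower, with an adjusted p of 0.0522, just short of the threshold. The other Ccnd1 probe sets read alike, at -0.49 ± 0.08 and -0.44 ± 0.13. Ccnd1 passed an adjusted p of 0.05 in 5 of 13 alternative fits, at an adjusted p from 0.00591 to 0.321 over all 13, with a fold change from -0.52 to -0.48. With an array left out, where almost no probe set of the table passed, Ccnd1 did not pass and stood at -0.51 to -0.49.

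Ccnd2 and Ccnd3, the other D-type cyclins, lay above 0 on their brightest probe sets. Ccnd2 read 13.22 and 13.12 in Gcnf-/- embryos, against 12.89 and 13.02 in wt embryos, a log2 fold change of 0.22 ± 0.08 (adjusted p = 0.246). Its 7 probe sets disagreed, from -0.26 to 0.28, so no direction can be given for this gene. Ccnd3 read 11.77 in both Gcnf-/- embryos, against 11.67 and 11.58 in wt embryos, a log2 fold change of 0.15 ± 0.07 (95% interval -0.04 to 0.33, adjusted p = 0.34), and another of its 3 probe sets lay just below 0.

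Cdkn1b encodes p27, an inhibitor of cyclin E with Cdk2. It read 10.48 and 10.14 in Gcnf-/- embryos, against 9.66 and 9.86 in wt embryos. The genotypes did not overlap, but the Gcnf-/- embryos differed from each other with an SD of 0.24, the highest among the members. The log2 fold change was 0.55 ± 0.14 (95% interval 0.19 to 0.90, adjusted p = 0.13), and a dim second probe set, with means of 4.53 in Gcnf-/- and 4.51 in wt embryos, read 0.02.

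Cyclin E and E2F1 act at the step from G1 into S phase. Ccne1, which encodes cyclin E1, read 10.99 and 11.30 in Gcnf-/- embryos, against 11.56 in both wt embryos, a log2 fold change of -0.42 ± 0.12 (95% interval -0.72 to -0.12, adjusted p = 0.153). Its other probe set, which carries no suffix for shared sequence, stood at -0.58 ± 0.09 (95% interval -0.81 to -0.36, adjusted p = 0.0623). Both Gcnf-/- embryos lay below both wt embryos on each. The size rests on single embryos, at -0.26 without Gcnf-/- replicate 1 and -0.58 without Gcnf-/- replicate 2. Ccne2, which encodes cyclin E2, read 9.93 and 9.75 in Gcnf-/- embryos, against 10.14 and 10.05 in wt embryos, a log2 fold change of -0.25 ± 0.09 (adjusted p = 0.224), or -0.16 without Gcnf-/- replicate 2. E2f1 itself, the factor that switches on replication genes, read 9.19 and 9.35 in Gcnf-/- embryos, against 9.16 and 9.07 in wt embryos, at 0.15 (95% interval -0.07 to 0.37).

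**Figure D2:**
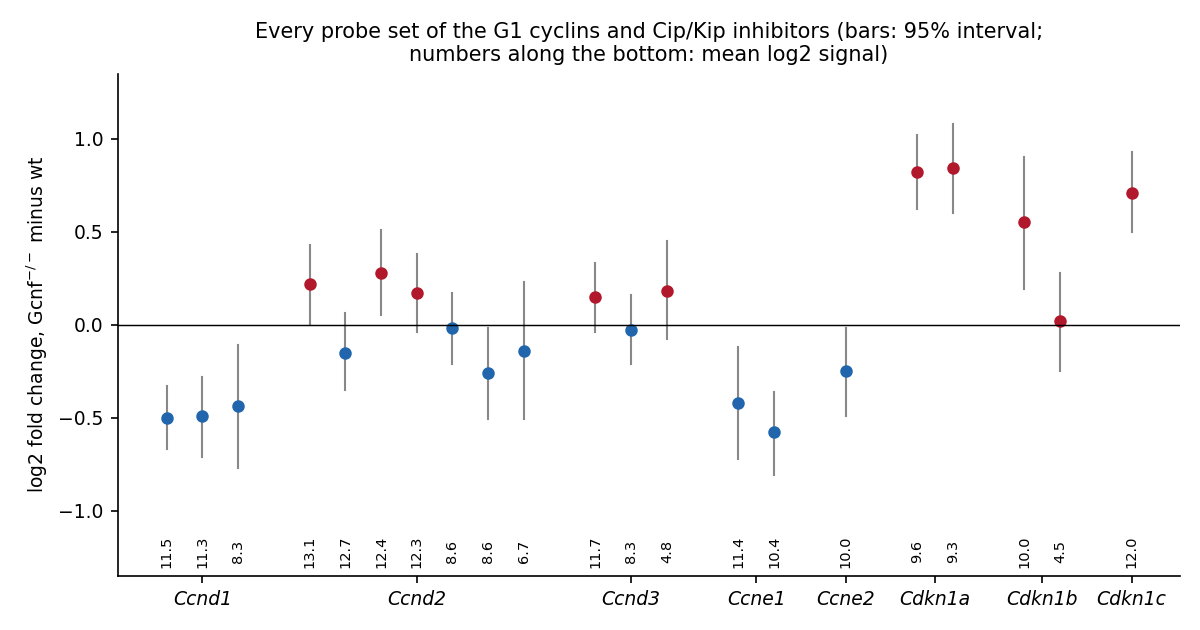
Log2 fold change (vertical axis, Gcnf-/- minus wt, bars are 95% intervals, n = 2 embryos per genotype) of every probe set of the D and E cyclins and of the p21, p27 and p57 genes, each gene's probe sets ordered by falling signal, with the mean log2 signal printed along the bottom. Red points lie above 0 and blue points below. The 3 probe sets of Ccnd1 and the 2 of Ccne1 lie below 0, the 2 of Cdkn1a lie near 0.82 and 0.84, and those of Ccnd2 scatter on both sides.

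Members that license and unwind replication origins stood between -0.18 and 0.10 on their brightest probe sets. Origin and fork genes outside the members, described below, had 14 of 19 below 0 and a median of -0.12. Cdc6 and Cdt1 load the MCM helicase onto origins. Cdc6 read 11.01 and 11.13 in Gcnf-/- embryos, against 11.06 and 11.07 in wt embryos, so the wt values lay between the Gcnf-/- values and the log2 fold change was 0.00 (95% interval -0.19 to 0.20). Cdt1 stood at 0.10 (95% interval -0.09 to 0.30). On their brightest probe sets, 5 of the 6 MCM helicase genes, Mcm2 to Mcm7, had a log2 fold change of -0.03 to 0.02. Of the 6, 0 had an unadjusted p under 0.05 in limma there. Other probe sets of the 5 ran from -0.30 (Mcm5, adjusted p = 0.142) to 0.29 (Mcm6, adjusted p = 0.201). Mcm3 was the exception in size, with 11.80 ± 0.06 in Gcnf-/- embryos and 11.98 ± 0.03 in wt embryos (SD, n = 2 each). Its genotypes did not overlap, and its log2 fold change was -0.18 ± 0.07 (adjusted p = 0.257), while its 4 other probe sets ran from -0.14 to 0.07. Gins2, a subunit of the GINS complex that travels with the helicase, stood at -0.05 (95% interval -0.23 to 0.13).

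Fork and nucleotide members stood between -0.12 and 0.20 on their brightest probe sets. Pcna, the sliding clamp of the replication polymerases, read 14.13 and 14.14 in Gcnf-/- embryos, against 14.15 and 14.12 in wt embryos. The signals interleaved, with a log2 fold change of 0.00 (95% interval -0.17 to 0.17). Rrm1 and Rrm2 encode the subunits of ribonucleotide reductase, which makes deoxynucleotides. Rrm2 read 13.07 and 13.12 in Gcnf-/- embryos, against 13.23 and 13.21 in wt embryos, at -0.12 ± 0.07 (adjusted p = 0.391). Its other probe sets stood at -0.17 and -0.11. Rrm1 stood at 0.04. Tyms, the enzyme that makes thymidylate, read 8.09 and 7.95 in Gcnf-/- embryos, against 7.74 and 7.89 in wt embryos, at 0.20 ± 0.09 (adjusted p = 0.302). Tyms stood at 0.13 without Gcnf-/- replicate 1 and also without wt replicate 1. Its other probe sets, all dimmer, stood at -0.08, 0.07 and -0.01.

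Mitosis genes lay mostly below 0, by little. Of the 13 measured, 11 were below and 2 above, with a median of -0.09 and a range from -0.17 to 0.18. The 8 that were lower without overlap make 61.5% of the 13, beside 30.4% of all genes and 36.1% of the brighter genes. This share was 37.5% for the S phase members. In the wider lists below it was 42.9% for mitosis genes and 39.6% for replication genes. Among the latter, origin and fork genes alone had 63.2%, so the share is not particular to mitosis genes. Top2a, the topoisomerase that untangles chromosomes, read 12.81 and 12.85 in Gcnf-/- embryos, against 13.01 and 13.00 in wt embryos. The log2 fold change was -0.17 ± 0.07 (adjusted p = 0.246), but another of its 3 probe sets read 0.20. That probe set is dimmer, with means of 8.81 in Gcnf-/- and 8.62 in wt embryos. It stands for Top2a, at 0.20, when probe sets with shared sequence are left out. Foxm1, a transcription factor of G2 and mitosis genes, read 8.63 in both Gcnf-/- embryos, against 8.80 and 8.78 in wt embryos, at -0.16 ± 0.07 (95% interval -0.33 to 0.01, adjusted p = 0.27). All 4 Foxm1 probe sets lay below 0, from -0.26 to -0.15. The -0.26 is that of a dim probe set, with means of 3.53 in Gcnf-/- and 3.80 in wt embryos. Without it the range ends at -0.20.

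Ccnb2, which encodes cyclin B2, lay on the opposite side. It read 12.11 and 12.15 in Gcnf-/- embryos, against 11.93 and 11.96 in wt embryos, a log2 fold change of 0.18 ± 0.07 (95% interval 0.01 to 0.36, adjusted p = 0.23). Its partner kinase Cdk1 read 12.81 and 12.87 in Gcnf-/- embryos, against 12.99 and 12.92 in wt embryos, at -0.12 (95% interval -0.30 to 0.07). Mki67, the proliferation antigen Ki-67, read 12.60 and 12.55 in Gcnf-/- embryos, against 12.67 and 12.65 in wt embryos, at -0.09 (95% interval -0.26 to 0.09). The genotypes did not overlap for Cdk1 or Mki67, but both intervals include 0.

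On their brightest probe sets, the remaining mitosis genes stood between -0.10 and 0.10. Aurkb, a kinase of the chromosomal passenger complex, was at 0.10 and Birc5 (survivin), a subunit of the same complex, at -0.09. The spindle checkpoint kinase genes Bub1 and Bub1b were at -0.09 and -0.10. Their other probe sets lay lower, at -0.18 for Bub1 and at -0.18 and -0.34 for Bub1b. The -0.34 is that of a dim probe set, with means of 5.96 in Gcnf-/- and 6.30 in wt embryos. Aurka and Plk1, kinases of the spindle poles and of mitotic entry, were at -0.06 and -0.05, and the cyclin A2 gene Ccna2 at -0.03. Cdc20, which activates the ubiquitin ligase that ends mitosis, read 13.18 and 13.15 in Gcnf-/- embryos, against 13.11 and 13.24 in wt embryos, at -0.01 (95% interval -0.21 to 0.19).

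**Figure D3:**
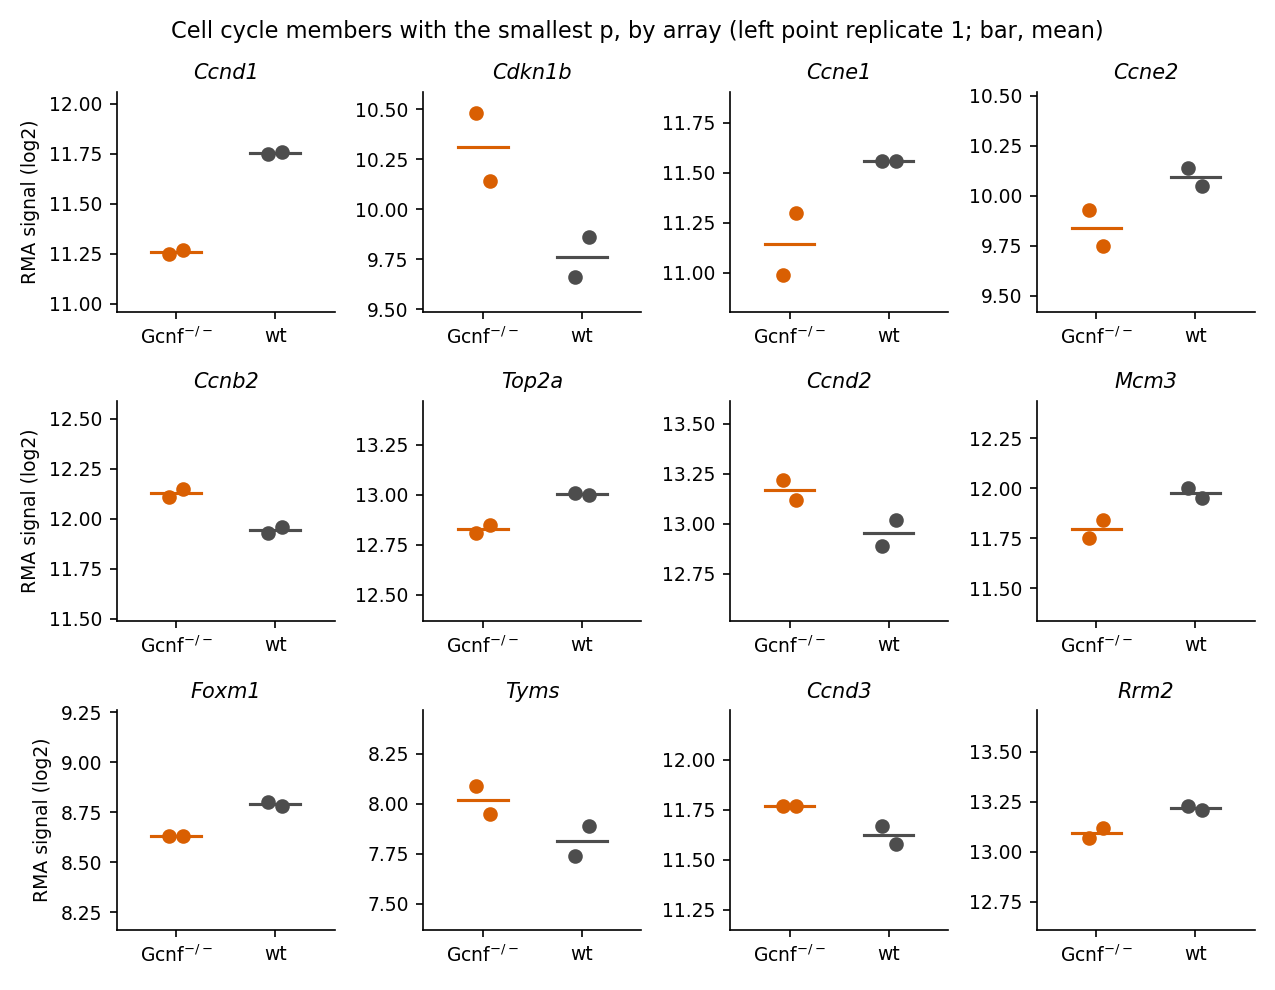
RMA log2 signal (vertical axis, each panel spanning the same 1.1 log2 units) of the 12 members with the smallest p in each Gcnf-/- embryo (orange) and each wt embryo (grey), with bars for the group means. The left point of a pair is replicate 1. The genotypes do not overlap in any panel, and their means differ by 0.12 (Rrm2) to 0.55 (Cdkn1b). Picking panels by smallest p favours such separation.

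Set against each other, S phase and mitosis genes differed by under 0.1. The S phase members had a median of 0.00 (7 above and 9 below 0, and 7 to 11 below with the other scalings) and the mitosis members one of -0.09, a difference of 0.08 before rounding. With each gene centred on its mean over the 4 arrays, the S phase median was -0.04 and 0.02 in Gcnf-/- embryos, against 0.00 and 0.01 in wt embryos, so the genotypes overlapped. The mitosis median was -0.04 and -0.03 in Gcnf-/- embryos, against 0.04 and 0.03 in wt embryos, and did not overlap. The difference of the medians, S phase minus mitosis, was 0.01 and 0.05 in Gcnf-/- embryos, against -0.03 and -0.02 in wt embryos. No test was made of these medians, since the list was drawn up with earlier results known. In the wider lists below, which share no gene with the members, the difference was 0.01. Without Gcnf-/- replicate 2, the S phase median was -0.05, the mitosis median -0.09 and their difference 0.04. Without wt replicate 1, the female, the S phase median was -0.01 and the mitosis median -0.08. Without the genes of less clear phase (Ccna2, Cdk1, Foxm1, Mki67, Top2a, Ccne1, Ccne2 and E2f1) the difference was 0.06.

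Members with and without the promoter letters had similar medians, which were not tested. The 6 S phase members with E2F letters had a median log2 fold change of -0.01 (range -0.18 to 0.10), and the 7 with a promoter but without these letters one of 0.02 (range -0.42 to 0.20). The 8 mitosis members with TTTGAA had a median of -0.07 (range -0.17 to 0.18), and the 2 measured members with a promoter but without these letters stood at -0.09.

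Of 132 other cell cycle genes, in lists by function, 2 reached an adjusted p of 0.05 in the fit over all probe sets. Both were inhibitors of cyclin-dependent kinases. Of all genes 1.4% reached it, so the count for these lists was near the background. Genes outside the inhibitors reached it in 2 alternative fits. Among brighter probe sets these were Orc2, Kif20a, Nek2 and Cdc25a, and with an intensity trend they were Orc2, Pold1, Kif20a, Tpx2, Nusap1, Nek2, Cdc25a and Skp2. In those 2 fits 2397 and 2694 probe sets of the table reached it, against 439 in the fit over all probe sets. Of 48 measured replication genes outside the members (origin firing and fork, polymerases and ligation, nucleotide supply), 0 reached an adjusted p of 0.05, with 23 above 0 and 25 below and a median of -0.01. Origin and fork genes alone had 14 of 19 below 0 and a median of -0.12. Orc2, a subunit of the origin recognition complex, stood at -0.32 ± 0.07 (adjusted p = 0.108, with 0.0409 among brighter probe sets and 0.0343 with the trend) and at -0.18 as the mean of its probe sets. Orc4, another subunit, stood at -0.26 (adjusted p = 0.196). Polymerase and ligation genes had 13 of 21 above 0 and a median of 0.06, with the catalytic subunit of polymerase delta Pold1 at 0.26 (adjusted p = 0.148, with 0.0474 under the trend, and 0.12 on the log2 scale without shared-sequence probe sets) and the nuclease and helicase gene Dna2 at -0.25 (adjusted p = 0.179). The 8 measured genes listed under nucleotide supply include some of other roles, such as Uhrf1, Dnmt1 and Slbp. Of the 8, the chromatin reader Uhrf1 stood at -0.20 (adjusted p = 0.247) and the thymidine kinase Tk1 at 0.08 (adjusted p = 0.57).

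Of 42 measured kinetochore, spindle and cytokinesis genes, 0 reached an adjusted p of 0.05 in the fit over all probe sets, with 17 above 0 and 25 below and a median of -0.02. Nek2, a centrosome kinase, stood at -0.32 (adjusted p = 0.117, with 0.0463 among brighter probe sets and 0.0323 with the trend). Kif20a, a kinesin of cytokinesis, stood at 0.28 (adjusted p = 0.121, with 0.0443 among brighter probe sets and 0.0282 with the trend). Among kinetochore genes, Cenpi stood at -0.28 (adjusted p = 0.131) and the checkpoint kinase Ttk at -0.23 (adjusted p = 0.199). The Ttk value rests on the choice of probe set and was -0.04 (adjusted p = 0.789) as the mean of its probe sets.

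Among 7 inhibitors of cyclin-dependent kinases outside the members, 2 were higher in Gcnf-/- embryos at an adjusted p of 0.05 and 0 were lower. Both were short of 2-fold, so 0 were called at the study's thresholds. Cdkn1a, which encodes p21, a target of p53, read 9.99 and 10.12 in Gcnf-/- embryos, against 9.21 and 9.25 in wt embryos. The genotypes did not overlap, and the log2 fold change was 0.82 ± 0.08 (95% interval 0.62 to 1.02, adjusted p = 0.0335), with its other probe set at 0.84 (adjusted p = 0.0417). Cdkn1c, an imprinted gene that encodes p57, read 12.26 and 12.38 in Gcnf-/- embryos, against 11.56 and 11.65 in wt embryos. Its log2 fold change was 0.71 ± 0.08 (95% interval 0.50 to 0.93, adjusted p = 0.043). Each of the 2 genes passed in 8 of 13 alternative fits. Neither passed with the replicate block or with an array left out, settings in which almost no probe set of the table passed. Over the 13 fits Cdkn1a ran from 0.76 to 0.89 and Cdkn1c from 0.65 to 0.78. Cdkn2d, which encodes the Cdk4 and Cdk6 inhibitor p19, stood at 0.41 (adjusted p = 0.0849), named after its values were seen. Cdkn2d reached an adjusted p of 0.05 among brighter probe sets, with an intensity trend and with gene means. The member Cdkn1b belongs to the same Cip and Kip family as Cdkn1a and Cdkn1c.

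The Rb and E2F list (17 genes, median -0.01) also holds Mybl2 and Lin genes. In it Rb1, the retinoblastoma gene, stood at 0.40 ± 0.11 (adjusted p = 0.142) and at 0.20 as the mean of its probe sets. E2f7, a repressor of E2F targets, stood at -0.37 ± 0.11 (adjusted p = 0.177). The list of G1 and checkpoint kinases (15 genes, median 0.03) also holds regulators that are not kinases, such as Cdc25a and Skp2. Cdc25a, the phosphatase that activates Cdk2, read 10.27 and 10.34 in Gcnf-/- embryos, against 10.69 and 10.61 in wt embryos. It stood at -0.34 ± 0.07 (adjusted p = 0.106, with 0.0411 among brighter probe sets and 0.0301 with the trend). Skp2, the ubiquitin ligase subunit that targets p27, read 11.21 and 11.20 in Gcnf-/- embryos, against 11.57 and 11.43 in wt embryos, at -0.30 ± 0.08 (adjusted p = 0.14, with 0.0415 under the trend). In the fit over all probe sets, 0 genes of these 2 lists reached an adjusted p of 0.05.

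**Figure D4:**
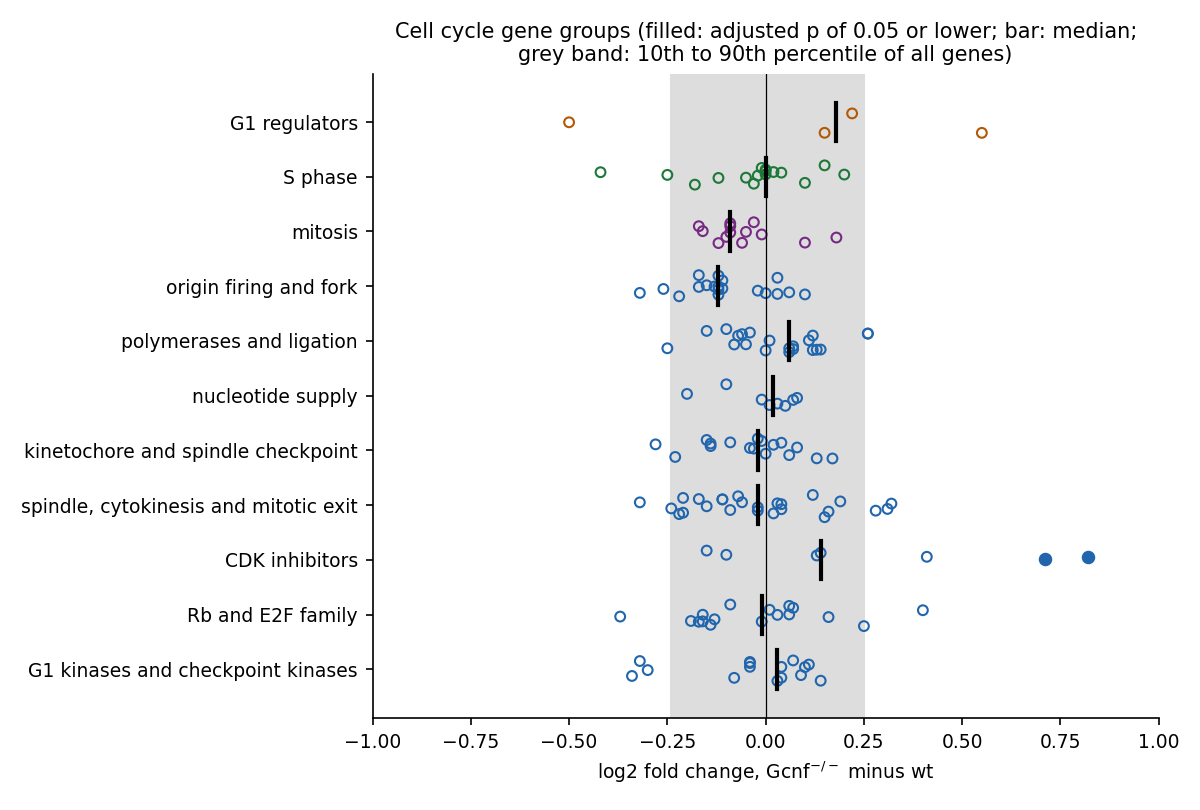
Log2 fold change (horizontal axis, Gcnf-/- minus wt) of the measured genes (points) in the 3 member groups and the 8 wider lists (rows), with list medians as black bars. The grey band spans the 10th to 90th percentile of all genes, -0.24 to 0.25. The 2 filled points, Cdkn1c and Cdkn1a among the inhibitors, are those at an adjusted p of 0.05 or lower.

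Probe sets of one gene did not always lie on the same side of 0. Of the 25 members with over 1 probe set, 15 had all of them on one side of 0 and 10 did not (Aurkb, Ccnd2, Ccnd3, Mcm2, Mcm3, Mcm4, Mcm6, Mcm7, Top2a and Tyms). An opposing probe set had an unadjusted p under 0.05 in 2 of these by limma, for Ccnd2 (-0.26, adjusted p = 0.226) and for Mcm6 (0.29, adjusted p = 0.201). For 15 members the probe set that stands for the gene carries a suffix for shared sequence, among them Ccne1, Top2a, Mcm3 and Rrm2.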

How the data were processed

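The authors deposited log2 signals, 1 per probe set and array, from RMA, a method of background correction, quantile normalisation and summary over probes. For the RMA software, a version was not given in the sources used here. This normalisation hides changes shared by most transcripts, and dim signals understate fold changes. Each array is 1 embryo, and their number limits the precision.

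Of 45101 probe sets, 64 controls were left out, and 34945 of the rest (77.6%) had 1 symbol, 932 several and 9160 none. Symbols were checked through Entrez identifiers against RefSeq GRCm38.p6 (99.4% matched). A gene was read from its probe set with the highest mean. Genotypes were compared with lmFit and eBayes of limma 3.58.1 (R 4.3.3), genotype as the only term, Benjamini-Hochberg adjustment over 45037 probe sets. Standard errors and intervals are moderated by the spread shared across probe sets (prior SD 0.0849, 3.16 prior degrees of freedom). An exact permutation test of 2 against 2 has a smallest two-sided p of 0.333 and was not used. No filter on dim probe sets was used. The script was tested on simulated data.

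The members and lists were chosen with earlier results of these data known. Values in every array are given for the 12 members with the smallest p and for others a role calls for, and of each wider list the genes at an adjusted p of 0.05, or else the 2 with the smallest p, are named, some by fold change alone. Sgol1 was read through its newer symbol, and listed genes without a probe set of their own were left out. The labels link same-numbered embryos only by number. Their deviations correlated at 0.06, which cannot show whether they shared a litter or a batch. Alternatives were a replicate block, each array left out, brighter probe sets, other scalings, other variance models, other choices of probe set and other phase lists.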

Additional observations from a re-analysis of the deposited data

Results flagged for a closer look

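The 3 control probe sets for 18S ribosomal RNA, outside the gene measurements, read higher in Gcnf-/- embryos by 1.06 on the log2 scale, with 10.83 and 10.74 in Gcnf-/- embryos, against 9.45 and 9.99 in wt embryos. It drew attention as a signal in data that the comparisons do not use. Its part in the cell cycle values was not tested.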

How the results depend on the processing

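No member was called at the study's thresholds in any of the 13 alternative fits. At an adjusted p of 0.05 whatever the fold, 1 member passed among brighter probe sets, with repeated quantile normalisation, with median centring and with gene means, Ccnd1 each time, and 2 passed with an intensity trend (Ccnd1 and Top2a). In these fits more probe sets of the whole table passed as well. They numbered 2397 among brighter probe sets, 824 with repeated quantile normalisation, 633 with median centring and 2694 with an intensity trend, against 439 in the main fit. With 1 array left out the count of members at that threshold was 0. The called probe sets numbered 172, and 0 with the replicate block, 0 to 9 with 1 array left out, 260 with an intensity trend and 439 with no fold threshold. The 9 came without wt replicate 2. The count has no value with gene means or with the lowest-p probe set, which work by gene. The wider genes at an adjusted p of 0.05 numbered 2, and 0 with the replicate block, 0 with any array left out, 7 among brighter probe sets and 11 with an intensity trend, settings added after seeing the data. Whether same-numbered embryos share more than a number is not known here (their deviations correlated at 0.06). With the block, Cdkn1a and Cdkn1c had an adjusted p of 0.167, and it changed no other call of a named gene. Without an array, the lone embryo is assumed to vary like the other genotype. The S phase median ran from -0.05 without Gcnf-/- replicate 2 to 0.01, the mitosis median from -0.09 to -0.06 without wt replicate 2, and their difference from 0.04 without Gcnf-/- replicate 2 to 0.10 without Gcnf-/- replicate 1. The mitosis median was -0.07 with repeated quantile normalisation and with gene means, -0.11 with median centring and -0.06 without genes of less clear phase, and 9 to 11 of its members lay below 0. The difference was 0.06 without those genes and 0.01 in the wider lists. Of 363 pairs of a named gene and a setting, 336 kept direction and side of the threshold, 16 came to pass it and 10 ceased to. Top2a changed side, at 0.20 (adjusted p = 0.311) without shared-sequence probe sets, since another, dimmer probe set then stands for it. The cause of the other changes was not tested. As means of their probe sets, Ccnd2 stood at 0.01, Cdkn1b at 0.28, Mcm3 at -0.07, Top2a at -0.02 and Tyms at 0.05. Dim signals, such as the second probe set of Cdkn1b, limit what can be measured.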
